A study of Homo sapiens with 79 samples.

Results

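Cells were selected for reads of 8 genes that mark a minor population of retinal organoids: AOC2, CPAMD8, MYOCD, AOC3, MECOM, RELN, COL9A1 and FLRT3. A cell was taken when at least 3 of the 8 genes had at least 5 reads each, and 83 of the 1976 cells met this rule. The organoids came from the established hESC line H9 carrying a CRX-GFP reporter, which marks photoreceptor precursors and their descendants, so all groups share that reporter and 1 cell line. They were grown with T3, taurine, retinoic acid and foetal calf serum in the medium, dissociated without sorting at day 60, day 90 and day 200 of differentiation, and captured on the Fluidigm C1 system, where each chip site is meant to hold 1 cell. Day 60 and day 90 had 1 chip each and day 200 had 2, called chip a and chip b, with 79 chip columns as samples in all. The 40 barcodes for chip rows were reused in every column, and 38 of them were found on all 4 chips. Neither columns nor cells are separate cultures, so no test was made and chips a and b of day 200 are the sole repeat of a time point. Ranges in parentheses are 95% intervals, exact binomial for shares and exact Poisson for read sums, and cover counting error only.

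The ciliary margin is the rim of the optic cup where neural retina meets pigment epithelium, and it gives rise to the epithelia of the ciliary body and iris. The ciliary epithelium secretes aqueous humour and makes collagens of the vitreous and the fibrillin fibres of the zonule that hold the lens. AOC2 and AOC3 are copper amine oxidases, and AOC2 was first described in retina. CPAMD8 is a secreted protein of the alpha-2-macroglobulin family that is linked to malformation of the anterior segment of the eye. MYOCD (myocardin) is a partner of SRF that switches on smooth and cardiac muscle genes, and MECOM is a zinc finger transcription factor. RELN is the secreted glycoprotein reelin, COL9A1 a chain of collagen IX of vitreous and cartilage, and FLRT3 a membrane protein of cell adhesion and FGF signalling.

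AOC2 and AOC3 lie next to each other on chromosome 17 and resemble each other, so their sequences bear on whether reads of one could be counted for the other. In GENCODE 44 on GRCh38, AOC2 lies at chr17:42844580-42850707 and AOC3 at chr17:42851184-42858130, both on the plus strand and 476 bases apart. Their coding sequences of 2268 and 2289 bases were identical at 71.02% of 2260 aligned bases. Exon 2 of the MANE Select transcripts, coding throughout, has 286 bases in both genes and no gap between them, and is shown 5′ to 3′ from GRCh38 (AOC2 chr17:42849086-42849371, AOC3 chr17:42854448-42854733, plus strand) with the 90 bases that differ in capitals.
AOC2 exon 2: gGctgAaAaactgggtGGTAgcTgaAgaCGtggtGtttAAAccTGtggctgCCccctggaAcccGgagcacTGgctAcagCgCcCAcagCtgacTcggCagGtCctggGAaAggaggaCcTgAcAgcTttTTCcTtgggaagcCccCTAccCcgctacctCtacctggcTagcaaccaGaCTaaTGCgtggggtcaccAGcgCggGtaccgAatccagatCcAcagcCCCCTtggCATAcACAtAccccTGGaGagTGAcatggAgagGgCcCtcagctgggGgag
AOC3 exon 2: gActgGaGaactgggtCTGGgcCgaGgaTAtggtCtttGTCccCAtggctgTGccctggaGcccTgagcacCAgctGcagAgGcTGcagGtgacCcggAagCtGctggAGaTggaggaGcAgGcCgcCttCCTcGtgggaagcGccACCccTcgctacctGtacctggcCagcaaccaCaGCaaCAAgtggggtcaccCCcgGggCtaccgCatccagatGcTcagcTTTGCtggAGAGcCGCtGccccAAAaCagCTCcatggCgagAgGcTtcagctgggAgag
The longest stretch that any AOC2 transcript shared with any AOC3 transcript was 47 bases, shorter than the 60 bases kept after trimming of the 75-base reads. This covers exact matches of annotated transcripts only. Alignment with mismatches or clipped ends was not examined, so the question is not settled by it. In the selected cells, 22 had at least 5 reads of AOC2 but not of AOC3, 5 the reverse, 10 had both and 46 had neither. All 22 cells of the first kind had 0 reads of AOC3.

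The selected cells made up 3.63% of the cells at day 60 (21 of 578, 2.26 to 5.50), 6.35% at day 90 (42 of 661, 4.62 to 8.49) and 2.71% at day 200 (20 of 737, 1.67 to 4.16). On the day 200 chips they were 6 of 356 cells on chip a, or 1.69% (0.621 to 3.63), and 14 of 381 on chip b, or 3.67% (2.02 to 6.09). The interval of day 90 lay above that of chip a and overlapped those of day 60 and chip b. Since day 60 and day 90 had a single chip each, differences between days and between chips cannot be told apart. The study also handled the days differently, with more concentrated spike-in RNA at day 90. Its limits for keeping cells were looser for spike-in reads at day 90 and for total reads at day 60. The part of these differences in the results was not tested. Chip columns shared the cells widely, with 50 of the 79 columns holding at least 1 and no column more than 4. The depth of the selected cells lay near that of the rest, with a median total count of 179667, 159197, 281442 and 201717 reads on the day 60 chip, the day 90 chip and chips a and b, against 163637, 160553, 251929 and 213277 in the other cells. Genes with any read numbered a median of 4281, 3694, 2308 and 4029.5 in the selected cells, in the same order. In the other cells they numbered 3796, 3669, 2363.5 and 3476, so the selected cells of day 60 and chip b had more. Whether this took part in any result, those with cells weighted equally among them, was not tested. Total counts over a column ranged from 3414268 to 7999822. Mitochondrial genes took a median of 7.42% of the reads of the selected cells of chip a against 4.12% of the others, the widest gap of the 4 chips; its part in the results was not tested. No selected cell was called a doublet (0 of 83, where 3 cells would have been 3.61%), against 25 of the other cells, 22 of them on chip a. At day 60 1 of the other cells was called and at day 90 0, so the calls cannot tell whether selected cells there were doublets.

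**Figure D1:**
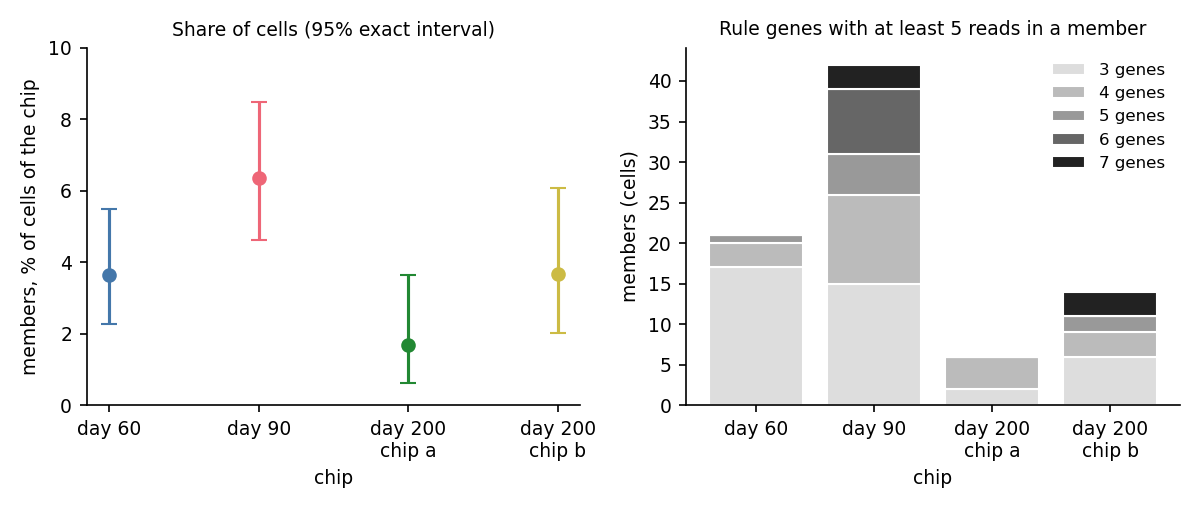
Left, share of the cells of each chip that met the rule (points, with the 95% exact binomial interval); right, stacked bars of the selected cells of each chip by how many of the 8 genes had at least 5 reads. The single day 90 chip had the highest share, 6.35%, and 17 of the 21 day 60 cells carried just 3 genes.

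The number of the 8 genes that a selected cell carried also varied by chip. At day 60, 4 of 21 selected cells had 4 or more of the genes, against 27 of 42 at day 90, and 4 of 6 and 8 of 14 on chips a and b. Cells with 5 or more genes numbered 1 at day 60, 16 at day 90, and 0 and 5 on chips a and b, and no cell had all 8. Over all chips, 149 cells had exactly 2 genes and lay just outside the rule, and 40 had exactly 3 and lay just inside. The third gene by reads had at most 4 reads in the former, with 0 reads in 115 of them, and a median of 11.5 reads in the latter (lowest 5, highest 185). The values of the 8 genes chose the cells, so their levels are given as a description.

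The amine oxidases were low at day 60. AOC2 had at least 5 reads in 2 of 21 day 60 cells, 19 of 42 at day 90, and 3 of 6 and 8 of 14 on chips a and b. Its pooled level, the summed reads scaled to the total reads of these cells (CPM), was 7.16 at day 60 (4.76 to 10.4), 202 at day 90 (192 to 213), 811 for chip a (771 to 853) and 898 for chip b (866 to 931). Single cells ranged from 0 to 178 CPM at day 60 and from 0 to 7569 CPM on chip b, so the day 60 cells lay low and the later chips held both low and high cells. On chip b 1 cell held 85.3% of the AOC2 reads and on chip a 1 cell held 65.9%. AOC3 was rarer, with at least 5 reads in 1, 9, 1 and 4 cells in the same order and 3.58, 54.8, 401 and 170 CPM. Its single high cell held 99.6% of the chip a reads.

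Secreted and matrix genes had at least 5 reads in more of the cells. RELN had at least 5 reads in 68 of the 83 cells, and its pooled level ran from 375 CPM on chip b to 606 CPM at day 90. Its median cell had 84.03, 562, 525 and 233 CPM from day 60 to chip b. CPAMD8 was read in 62 cells, with 149 CPM at day 60, 505 at day 90, and 1195 and 447 on chips a and b. All 6 cells of chip a had CPAMD8, between 634 and 2547 CPM. COL9A1 was read in 53 cells, among them all 14 of chip b (lowest 82.9, median 560.5, highest 5387 CPM), and its pooled level was 107, 234, 651 and 1017 CPM on the 4 chips. On chip a 1 cell held 68.8% of the COL9A1 reads and on chip b 53.6%. FLRT3, at least 5 reads in 50 cells, had 274, 373, 181 and 157 CPM, and 1 cell held 87.4% of its chip a reads.

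Regulators were found in fewer cells. MYOCD had at least 5 reads in 6 of 21 day 60 cells, 20 of 42 at day 90, and 2 of 6 and 3 of 14 on chips a and b, with 40.2, 169, 11.4 and 89.2 CPM. Outside the selected cells it was in 10 of 1893 cells, of which 6 were of day 60. MECOM was read in 3, 17, 0 and 3 cells, with 69.3 CPM at day 60, 87.9 at day 90 and 33.8 on chip b. Chip a had 0 MECOM reads, where 3 reads would have given 1.63 CPM. Of the other cells, 20.2% had RELN at day 90 and 19.6% had COL9A1 on chip b, while AOC2 was in 2.64%, AOC3 in 0.581% and MECOM in 0.634% over all chips.

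**Figure D2:**
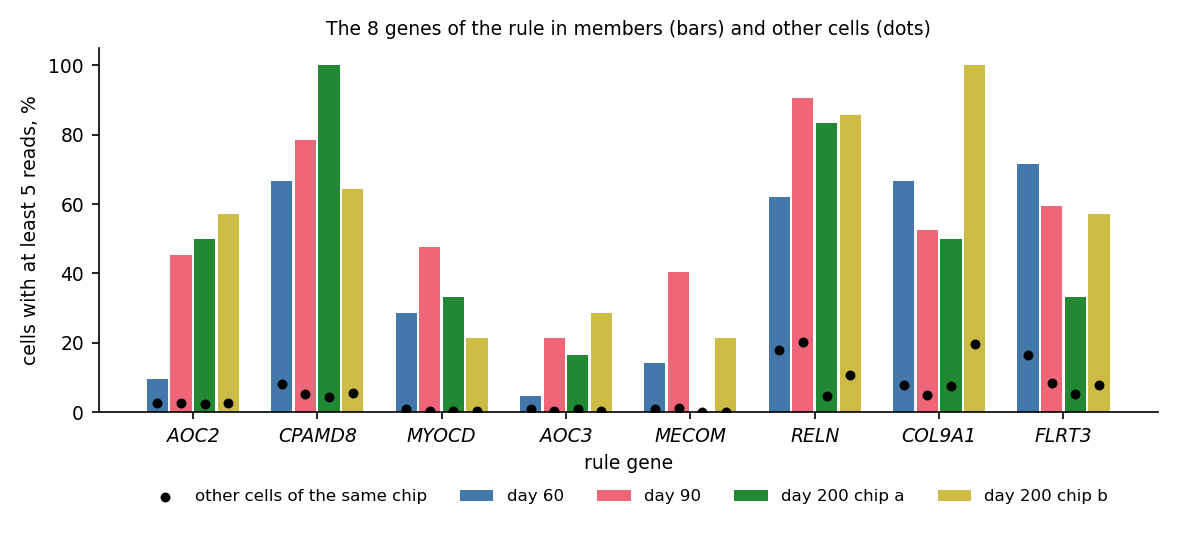
Share of cells with at least 5 reads of each of the 8 genes, in percent, for the selected cells of each chip (bars) and the other cells of the same chip (black dots). AOC2 was in 9.52% of the selected cells at day 60 and in 45.2%, 50% and 57.1% on the later chips.

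The genes met in many combinations. AOC2 and CPAMD8 together had at least 5 reads in 27 of the 83 cells, which was 27 of the 32 cells with AOC2 and of the 62 with CPAMD8. CPAMD8 accompanied MYOCD in 24 of 31 cells and AOC3 in 13 of 15. Reelin was the commonest partner of MECOM, in 19 of 23 cells. The most frequent exact combination was RELN with COL9A1 and FLRT3 (7 cells), then CPAMD8 with RELN and FLRT3 (6 cells), so the commonest set held neither AOC2 nor CPAMD8. For CPAMD8, MYOCD and COL9A1 an antisense gene overlaps an exon in GENCODE 44 and the counting states no strand setting, so reads there could not be divided by strand.

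Outside the 8 genes, the selected cells were compared with the other cells of the same chip by the difference of log2(CPM + 5) of summed reads. A gene was called higher when this was at least 1 on each of the 4 chips and lower when it was -1 or less. The rule used these same libraries, so the calls are a description. Of 12124 genes with a mean of at least 5 CPM, here called the tested genes, 15 were higher on every chip (0.124%) and 145 lower on every chip (1.2%). The 9 higher genes with at least 5 reads in 30% or more of the selected cells were HSD17B2, LRP2, ERICH5, CYP1B1, EFNA5, PSAT1, PCDH9, GJA1 and GNG11. The other 6 were LPXN, CCDC148, PGM5, CXCL14, SLIT3 and OR7E28P, in 5 to 17 cells each.

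HSD17B2, which oxidises oestradiol and testosterone to weaker steroids, had 131 CPM in selected cells against 24.5 in other cells at day 60, 538 against 145 at day 90, 331 against 96.5 on chip a and 415 against 35.9 on chip b. The median selected cell had 0, 268, 3.85 and 50.2 CPM and the highest 4126 CPM, so each chip held both cells high in the gene and cells with 0 or few reads. An antisense gene overlaps an exon of HSD17B2, PCDH9, CYP1B1 and AMER2 in GENCODE 44, so their reads too could not be divided by strand. LRP2, the endocytic receptor megalin, was more even: 251 against 90.6 CPM, 349 against 95.5, 993 against 158 and 393 against 123 on the 4 chips, with at least 5 reads in 59 of the 83 cells and 29.6% of the others. The median selected cell had between 180 and 335 CPM of LRP2 on every chip, while the median other cell had 0.

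PCDH9, a protocadherin of cell adhesion, was in 59 cells with 472, 906, 581 and 392 CPM, against 204, 135, 103 and 123 CPM in the other cells. EFNA5, an ephrin of axon guidance and tissue boundaries, was in 58 cells with log2 differences of 1.20, 2.64, 3.21 and 2.52. On chip a 1 cell carried 86.1% of the EFNA5 reads. CYP1B1, a cytochrome that acts on retinoids and steroids and whose loss causes congenital glaucoma, was in 55 cells with differences of 1.65, 1.23, 1.25 and 2.71, and its highest level was 866 CPM on chip b. GJA1, the gap junction protein connexin 43, was in 42 cells with 108, 416, 850.1 and 155 CPM against 37.2, 185, 57.05 and 57.8 in the other cells. ERICH5, whose role is little known, was in 36 cells, with 128 against 16.6 CPM at day 60 and 289 against 14.3 on chip b. GNG11, a G protein gamma subunit, was in 32 cells, and PSAT1, an enzyme of serine synthesis, in 34 with differences between 1.20 and 1.92. On chip a the level of several genes rested on single cells: 1 of 6 cells held 88.3% of the GNG11 reads and 69.96% of the GJA1 reads, and PSAT1 was read in 1 cell.

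**Figure D3:**
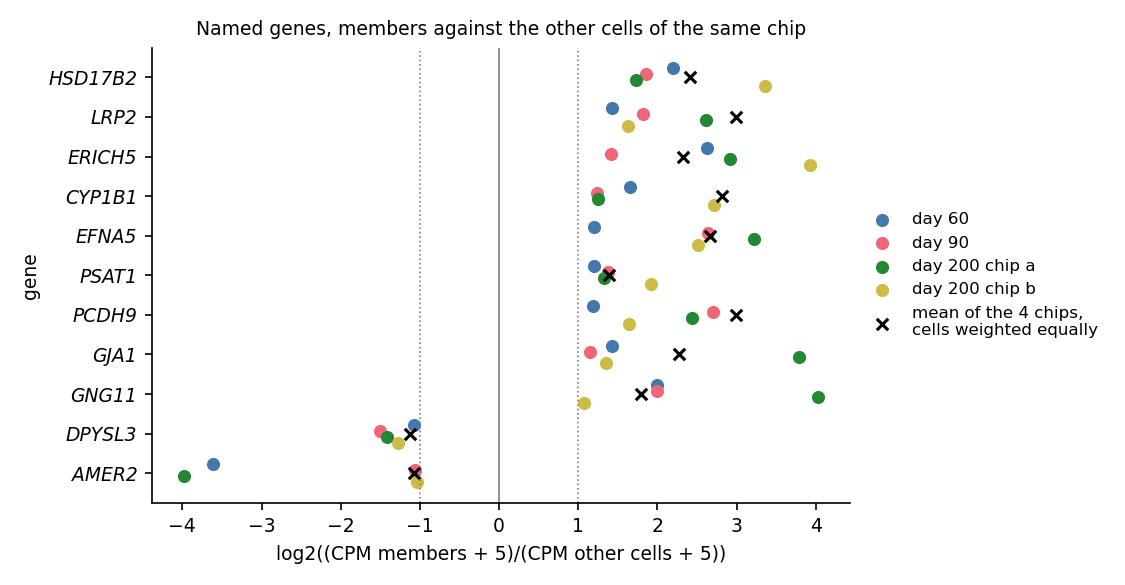
Differences in log2(CPM + 5) between selected cells and other cells of the same chip (coloured points, 1 per chip, from summed reads) for the 11 genes named by rule; crosses are the mean over the 4 chips when every cell has equal weight, and dotted lines mark the threshold of 1 in each direction. The 9 upper genes lay above 1 and DPYSL3 and AMER2 below -1 on every chip.

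The calls depended on the cells compared with. HSD17B2, GJA1 and GNG11 were read in 56.2%, 67.97% and 59.5% of the other cells that met the list of 10 genes of the retinal pigment epithelium (RPE), and against those cells alone their mean differences turned to -1.12, -0.65 and -0.94. Against the cells of the Müller glia list they stayed at 2.74, 2.12 and 2.65. Against the RPE list cells EFNA5 alone of the 9 genes was still higher on every chip. The mean difference there was 0.55 for CYP1B1 and 0.71 for PSAT1. It was 1.83, 2.22 and 2.90 for LRP2, PCDH9 and ERICH5, which each missed the threshold on at least 1 chip. Most of the 153 RPE list cells, 119, came from the day 90 chip, so their shares above are mainly day 90 values. Chip b gave 17 of them, chip a 12 and the day 60 chip just 5, yet all chips had equal weight in the mean differences. Whether these small groups took part in the sign changes and missed calls was not tested. Against the Müller glia list cells HSD17B2, ERICH5, PCDH9, GJA1 and GNG11 were called, while LRP2, CYP1B1, EFNA5 and PSAT1, with mean differences of 1.37, 1.36, 2.14 and 1.34, were not.

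Giving every cell equal weight changed which genes were called. The difference of the mean over cells of log2(CPM + 5) was at least 1 on every chip for 22 genes (0.181%), of which 7 were among the 15 above: LRP2, EFNA5, PCDH9, ERICH5, CYP1B1, GJA1 and HSD17B2. A single gene, TMCO1, was lower on every chip this way (0.00825%), and none of the 145 genes lower in sums was called. DPYSL3, a collapsin response protein of growing neurons, had 109 against 235 CPM at day 60, 177 against 512 at day 90, 174 against 472 on chip a and 111 against 275 on chip b. AMER2, a membrane-bound regulator of Wnt signalling, had 3.33 against 96.8 CPM at day 60 and 78.7 against 169 at day 90. Averaged over chips, their equal-weight differences were -1.13 and -1.08, without passing the threshold on every chip. The genes below were picked from the 22 after their values were seen.

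Among the genes added by equal weight were some regulators of retinal identity. Of 12 retinal progenitor genes tested, PAX6 and HES1 alone were called this way. PAX6, the eye field transcription factor, had at least 5 reads in 80 of 83 selected cells and in 64.4% of the others. Its median cell had 684 CPM at day 60, 883 at day 90, and 752 and 701 on chips a and b, against 261, 121, 20.4 and 191 in the other cells. HES1, a Notch target that keeps progenitors from differentiating, was likewise in 80 cells, against 73.7% of the others. NR2F1, a nuclear receptor of the optic vesicle, was in 82 against 75.7% of the others. PTPRD, a receptor phosphatase, and PCDH7, a protocadherin, were in 57 and 56 cells against 30.2% and 21.4%. DACH1 and CDON, the latter a co-receptor for hedgehog, were in 64 and 54 cells, against 56.2% and 40.0% of the others.

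COL1A2, the alpha 2 chain of collagen I, stood apart from its usual partners. It had at least 5 reads in 71 of the 83 selected cells and in 39.8% of the other cells, with equal-weight differences of 2.45, 3.74, 1.86 and 2.60 on the 4 chips. In sums it was not called, with 334 against 287 CPM at day 60, 1475 against 1245 at day 90, 303 against 548 on chip a and 994 against 1161 on chip b. COL1A1, the chain it normally joins, was in 9 selected cells and had 2.81, 16.9, 0 and 28 CPM there against 146, 369, 139 and 433 in the other cells. DCN, the small proteoglycan decorin of mesenchyme, was in 4 selected cells. COL3A1 was in 16 cells, with 1.02, 229, 191 and 16.3 CPM.

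Lists of genes were then counted to check the ciliary margin label. Of 15 ciliary margin genes 14 were tested and none was called higher or lower in sums, with a median difference of 0.18 beside -0.42 over all tested genes. Listed genes named here and below beyond the naming rule were picked after their values were seen. By equal weight 1 of them was called, CDON. Values of the list ran both ways: WFDC1 had a mean difference of 1.63 and OTX1 of 1.92, while MEIS2 had -1.59. OTX1 had at least 5 reads in 0 cells at day 60, 3 at day 90, and 1 and 4 on chips a and b, all its chip a reads lying in 1 cell, and WFDC1 in 1, 8, 1 and 5. CCND2, a cyclin of the margin and of progenitors, was in 54 cells, with 258, 307, 504 and 329 CPM against 263, 265, 299 and 353. The signals BMP4 and BMP7 were in 7 and 17 cells, and MSX1 in 6. The wider ciliary margin list therefore did not carry the label across the chips, and the cells are called here by the rule that picked them.

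The list of vitreous and zonule matrix had 0 of 11 tested genes called in sums and a median of 0.45, and 1 called higher by equal weight, FBN1. FBN1, the fibrillin of the zonule, was in 40 cells against 17.7% of the others, with 70.6, 223, 475 and 433 CPM against 43.3, 98.7, 135 and 85.8. COL9A2, which forms collagen IX with COL9A1, was in 35 cells against 10.6%, and was at 106 against 26.4 CPM at day 90 and 175 against 17.4 on chip a, but at 13.8 against 9.52 at day 60. VCAN was in 40 cells, with differences of 0.40 to 1.41. COL2A1, the main collagen of vitreous, had 264 against 69.5 CPM at day 60, 68.96 against 62.3 at day 90, 95.97 against 109 on chip a and 73.8 against 73.6 on chip b. HAPLN1 had 0 reads in all selected cells (up to 0.181 CPM).

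Transport genes of the ciliary epithelium gave 1 call among 15 tested, GJA1, and a median of -0.28. CA2, carbonic anhydrase II, had 1417 against 401 CPM on chip a, where 1 cell held 97.2% of its reads, and lay below the other cells at day 90 (39.5 against 126) and on chip b (81.5 against 233). ATP1B2 and ATP1B3, beta subunits of the sodium pump, were in 57 and 40 cells, and neither was called. Their shares in the other cells are not given here. CA4 had 0 reads in all selected cells.

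Of the genes that the study lists for its cluster 7, 6 lay outside the rule, and 3 of these were called higher: HSD17B2, PCDH9 and GJA1. The study chose that list on these samples, so it is no independent evidence. PKP4, a junction protein of the same list, was in 60 cells and had 136 against 80.5 CPM at day 60, 712 against 152 at day 90, 789 against 122 on chip a and 590.1 against 99.6 on chip b, so it missed the call at day 60 alone. TFPI2 went the other way at day 60 and on chip a, with 1.79 against 12.4 and 6.51 against 73.98 CPM, and lay at 402 against 213 at day 90 and 180 against 48.2 on chip b.

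The partners of the 8 genes were mostly not called. None of 10 tested myocardin and SRF targets was called, although ACTA2, smooth muscle actin, had 33.8 against 2.19 CPM at day 60 and 133 against 12.2 at day 90, in 18 cells over all chips. TAGLN had 0 reads in all selected cells, and MYH11 was read in 1 cell. Among amine oxidases LOX was called lower, with a mean difference of -1.66. Of the alpha-2-macroglobulin family, A2M had 453 CPM on chip b and 0 on chip a, and 0 of 3 tested were called. Among receptors and partners of FLRT3 and reelin LRP8, a reelin receptor, was called lower, and ADGRL2, a partner of FLRT proteins, had 159 against 65.4 CPM at day 60 and 316 against 74.7 on chip a.

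Pathway lists gave no gene higher on every chip. Of 20 Wnt genes tested none was called, and without chip a, where 44 genes were higher (0.358%) and 197 lower (1.6%), WNT5A and SFRP2 were. WNT5A, a ligand of noncanonical Wnt signalling, had 114 against 32.7 CPM at day 60, 96.4 against 22.9 at day 90, 51.4 against 12.8 on chip b and 0.54 against 11.4 on chip a. SFRP2, a secreted Wnt antagonist of early retina, was in 56 cells, with 1178 against 434 CPM at day 60 and 745 against 144 at day 90. Of 15 BMP genes tested none was called, and BMP2 had the largest mean difference, 1.97, with 83.5% of its chip a reads in 1 cell. Of the FGF list FGFR3 was called lower. ALDH1A1, a retinoic acid synthesising enzyme of the dorsal retina, was higher without chip a, with 179 against 18.4 CPM at day 90 in 17 of 42 cells.

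Of 12 retinal progenitor genes tested 0 were called in sums, with a median of 0.13, while PAX6 and HES1 were called by equal weight. SIX3 was in 72 cells with 453, 515, 685 and 685 CPM against 315, 361, 394 and 388. SOX9 was in 25 cells and had a mean difference of -1.35.

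**Figure D4:**
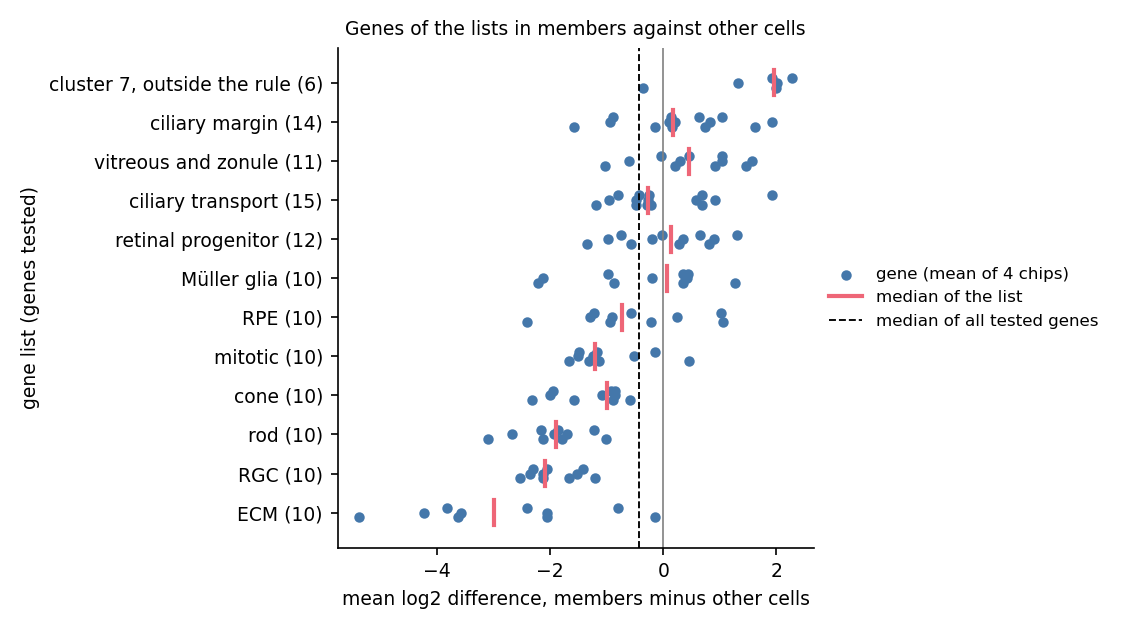
Mean over the 4 chips of the log2 difference between selected and other cells for each tested gene (points) of 12 lists, with the median of each list (red bar) and of all tested genes (dashed line, -0.42). The ciliary margin median was 0.18, and the lists of RGC, rod and ECM genes lay lowest.

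Lists of other retinal cells lay below the other cells in sums, with medians of -1.003 for cones, -1.89 for rods, -2.09 for RGCs and -3.00 for the ECM list. Genes called lower were IMPG2 and RCVRN of the cone list, LHX4 of the rod list, NEFL of the RGC list and DCN, TGFBI, COL1A1 and MGP of the ECM list. The 10 Müller glia genes had a median of 0.07 and the 10 RPE genes -0.74, with 0 called in either direction. Of 10 mitotic genes 0 were called as well. Of the lens list 0 of 3 measured genes reached the minimum level. TTR of the choroid plexus list was called lower and read in 0 of the day 60 and day 200 selected cells at 5 reads.

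Summed list levels give the same comparison per chip. The ECM list summed to 494, 1988, 731 and 1410 CPM in the selected cells, against 2686, 4632, 1582 and 7366 CPM in the others. RPE genes summed to 331, 1911, 1737 and 1686 against 334, 3637, 1169 and 878, so on the day 200 chips they lay above the other cells. Cone genes summed to 144, 1095, 4142 and 949 against 425, 2630, 4741 and 2416 in the other cells. On chip a 1 of the 6 selected cells met the cone list, and ARR3 (863 CPM) and GNGT2 (579 CPM) each had at least 5 reads in 1 cell. Whether reads of other cell types took part in a result was not tested.

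Cells were also counted by the lists of other cell types, where meeting a list means at least 5 reads in at least 6 of its 10 genes. None of the 8 lists was met by 18 of the selected cells (21.7%, 11 of them of day 90) and by 17.7% of the other cells. This order changed by chip, with 14.3% against 24.1% at day 60 and 26.2% against 14.2% at day 90. Chip a had 50% against 19.7% and chip b 7.14% against 12.3%. The Müller glia list was met by 57 of 83 selected cells (68.7%), against 50.98% of the other cells. By chip these were 81.0% against 44.9% at day 60, 61.9% against 47.5% at day 90, 33.3% against 56.9% on chip a and 85.7% against 60.5% on chip b, so chip a ran the other way. With 8 of the 10 genes required the pooled order turned, to 14.5% of the selected and 19.8% of the other cells. That list shares HES1 with the progenitor list and SFRP2, DKK3 and WIF1 with the Wnt list. The cone list was met by 11 selected cells (13.3% against 16.2% of the others), the mitotic list by 7 (8.43% against 6.55%) and the RPE list by 6 (7.23% against 8.08%). Here too the chips differed. For the RPE list the shares were 0% against 0.898% at day 60 and 7.14% against 19.2% at day 90. They were 0% against 3.43% on chip a but 21.4% against 4.63% on chip b. For the mitotic list they were 14.3% against 16.0% at day 60 and 9.52% against 4.52% at day 90. On chips a and b 0 selected cells met the mitotic list, against 1.14% and 0.817% of the others. The RGC list was met by 5 (6.02% against 9.83%), the ECM list by 3 (3.61% against 6.92%), and the rod list and that of the study's cluster 8 by 1 each (1.20% against 8.82% and 4.33%). At least 2 lists were met by 21 selected cells, and the other cells were not counted for this.

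The cells with 4 or more of the 8 genes were described further on the 2 chips with at least 5 of them, day 90 (27 cells) and chip b (8 cells). Calls on 2 chips are easier to reach: 270 of 12068 genes were higher (2.24%) and 1184 lower (9.81%) than in the cells outside the rule. Of the vitreous and zonule list 5 of 11 were then higher: COL9A2, COL9A3, FBN1, LTBP2 and VCAN. FBN1 was read in 17 of the 27 and 7 of the 8 cells. Of the ciliary margin list 3 of 14 were higher, OTX1, WFDC1 and CDON, and OTX1 was in 3 and 4 cells. Of the transport genes SLC4A4, a bicarbonate cotransporter, and GJA1 were among the higher, and CA2 was lower. WNT5A and SFRP2 were higher too, while 4 of the 19 Wnt genes were lower, LEF1, TCF7, RSPO3 and WIF1. SFRP2 was also 1 of 10 Müller glia genes, of which WIF1, GPX3 and TF were lower. Of 11 partners of FLRT3 and reelin UNC5C was higher, and ADGRL3 and LRP8 were lower. PAX6 was the only higher gene of 11 progenitor genes, ACTA2 of 10 SRF targets and ALDH1A1 of 11 genes of retinal axis patterning. Of the rod list 7 of 10 were lower, of the ECM list 8 of 10, and of the mitotic list 6 of 10.

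At day 90, where all steps held at least 11 cells, the share of cells with a gene was set beside the number of the 8 genes in a cell. PAX6 was in 56.96% of 395 cells with 0 of the genes, 71.5% of 179 with 1, 86.7% of 45 with 2, 93.3% of 15 with 3 and all 11 and 16 cells with 4 and with 5 or more. HSD17B2 went from 11.1% through 20.7%, 37.8%, 46.7% and 54.5% to 68.8%. FBN1 went from 16.5% to 68.8% in the same steps. EFNA5 was already in 48.9% of the cells with 2 genes and in 86.7% of those with 3. LRP2 was level at 40.0% for 2 and 3 genes and at 81.2% for 5 or more. ALDH1A1 was highest with 4 genes, at 63.6%, and at 37.5% with 5 or more. GJA1 dipped to 26.7% with 3 genes. These steps were chosen after the data had been seen. HSD17B2, LRP2, EFNA5, GJA1, PAX6 and FBN1 had already been called higher in cells with at least 3 of the 8 genes. A rise towards the later steps was therefore partly set by that choice and is a description only. Depth was not compared between the steps, and its part in the shares was not tested.

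**Figure D5:**
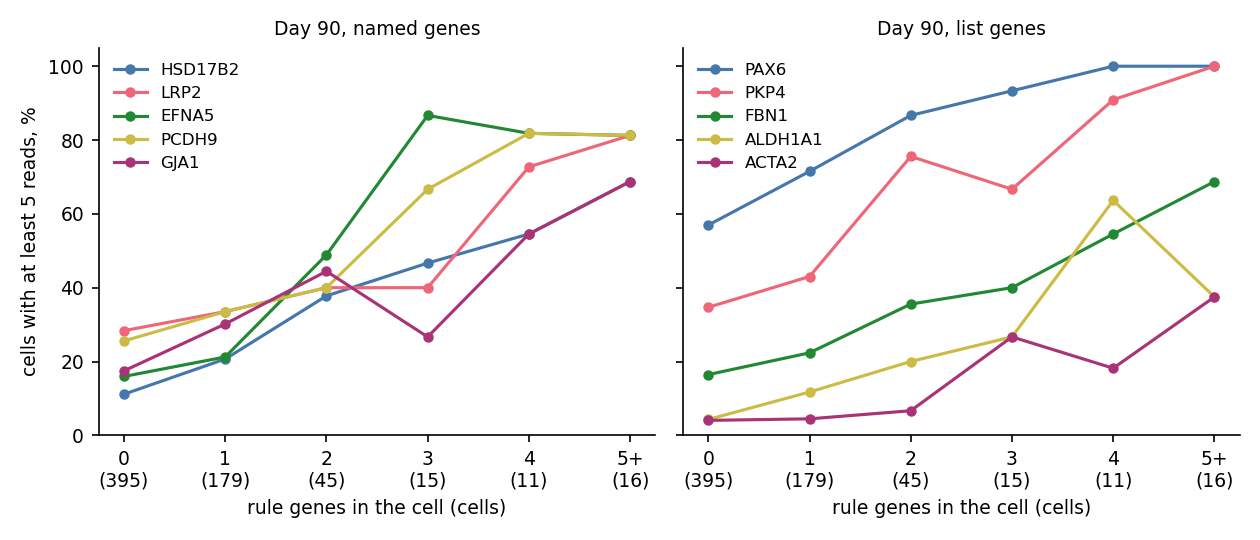
Share of day 90 cells with at least 5 reads of a gene, in percent, against the number of the 8 rule genes in the cell (number of cells in parentheses), for 5 named genes (left) and 5 genes of the lists (right). PAX6 went from 56.96% to 100%, and HSD17B2 from 11.1% to 68.8%.

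Neighbours of the selected cells were counted without the 8 genes, in 20 principal components of the 1000 most variable genes of each chip. Among the 15 nearest neighbours of a selected cell, 46.98% on average were selected cells at day 90, where such cells were 6.35% of the chip. On chip b the share was 19.0% against 3.67%, at day 60 8.89% against 3.63% and on chip a 4.44% against 1.69%. At day 90 6 of the 42 cells had no selected neighbour, and at day 60 8 of 21. Cells with 4 or more of the genes had 57.3% at day 90, 27.5% on chip b, 18.3% at day 60 and 6.67% on chip a. The values of day 60 and chip a rest on 4 cells each. With 10 components the day 60 value was 11.7%. The number of selected cells on a chip limits the share, since a cell of chip a can have no more than 5 selected neighbours.

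Between day 60 and day 200 the selected cells were compared by the same measure with a threshold of 2, to be passed by both day 200 chips. Of 11138 genes, 246 were higher at day 200 (2.21%) and 944 lower (8.48%). In the other cells 93 and 50 of 12372 genes passed, and 29 and 28 were shared, which is 11.8% of the 246 and 31.2% of the 93, and 2.97% of the 944 and 56% of the 50. The sums of the selected cells hold 6 to 21 cells and those of the other cells 350 to 557, and whether the counts differ for that reason was not tested. With cells weighted equally 15 genes were higher and 104 lower, of which 13 and 35 were among the 246 and the 944.

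Genes of division were among the lower. Of 9 mitotic genes tested 7 were lower at day 200 in the selected cells, against 4 in the other cells. MKI67 had 95.9 CPM at day 60 and 265 at day 90 and 0 reads on both day 200 chips, and 1 cell held 83.2% of its reads at day 60 and 53.02% at day 90. CENPF had 169, 432, 0 and 0 CPM. NUSAP1, which bundles spindle microtubules, was in 7 of 21 day 60 cells and in 0 of 20 at day 200. At day 90 4 of the 42 selected cells met the mitotic list and summed mitotic genes were at 2666 CPM against 1014 in the other cells, with 3220 against 3509 at day 60. The 27 day 90 cells with 4 or more of the 8 genes did not share this level. There MKI67 had 6.24 against 69.1 CPM, TOP2A 12.1 against 129 and CENPF 26.8 against 143, while HMGB2 had 142 against 137. Of the 10 mitotic genes, 0 were higher and 6 lower in such cells on both day 90 and chip b.

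Other genes lower at day 200 by the naming rule included IGF2BP1, an RNA-binding protein of fetal growth, with 131 CPM at day 60 and 0 on both day 200 chips, MIR503HG with 139, 0 and 0.31, CCDC138, GFY and 2 short RNAs, MT-TL1 and SCARNA22. In the other cells SCARNA22 was likewise called lower, with 584 CPM at day 60 and 28.7 and 41.8 on the day 200 chips. IGF2BP1 was called lower there too, with 91.2, 8.19 and 10.03 CPM, as were MT-TL1 and GFY.

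Genes higher at day 200 were GRAMD1B, CGNL1, DGCR2, CP, TYRP1, STX3, TF and SLC26A11. With cells weighted equally STX3, TF and SLC26A11 had mean differences of 1.74, 1.88 and 1.43, under the threshold of 2, as had CCDC138 among the lower (-1.88). CP, the copper ferroxidase ceruloplasmin, had 9.98 CPM at day 60 in 1 of 21 cells with at least 5 reads, 71.1 at day 90, and 329 and 1022 on chips a and b, where 4 of 6 and 10 of 14 cells had at least 5 reads. In the other cells CP was called higher too, with 17.7, 101, 367 and 325 CPM, and so were GRAMD1B, TYRP1 and TF. CGNL1, a tight junction protein, had 0.26, 157, 739 and 125 CPM, and in the other cells 21.6, 122, 98.7 and 158 CPM, where its differences to day 60 of 1.96 and 2.62 missed the threshold on chip a alone. GRAMD1B had 0, 35.4, 145 and 271 CPM. TYRP1, an enzyme of melanin synthesis, had 1.54, 79.7, 165 and 140 CPM, with at least 5 reads in 1 cell at day 60 and 7 at day 200. In the other cells TYRP1 had 5.56, 165, 62.3 and 51.3 CPM. TF had 154 and 97.2 CPM on chips a and b, against 1222 and 824 in the other cells. Of the cone list 6 of 10 genes were higher, as were 6 in the other cells. PDE6H, the inhibitory subunit of the cone phosphodiesterase, had 0 reads at day 60, 900.03 CPM on chip a, where 3 of the 6 cells had at least 5 reads, and 108 on chip b. The RPE list had 4 of 10 higher and the ECM list 1 of 8.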

How the data were processed

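SMART-Seq v4 libraries of single cells were trimmed by the authors with Trimmomatic 0.33, aligned with STAR 2.4.0 to GRCh38.p7 with GENCODE 25 and counted per gene with HTSeq 0.6, with no strand setting stated. The deposited values are raw read counts without molecular identifiers, for 24415 rows and 1976 cells. By these counts, 1564 cells and 61 of the 83 selected cells pass the filter on reads, genes and mitochondrial share that the study states; all were kept. The spike row (0.00479% of reads) was left out, and 0 value columns lacked a sample.

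Members and lists were chosen with earlier results of these data known. Reads were summed per chip, and genes were named by rule: up to 15 higher and 10 lower with at least 5 reads in 30% of members or other cells, 8 each between days, and up to 4 per list. Doublets were called with scanpy 1.11.5 and TMM factors with edgeR 4.0.16 (R 4.3.3). Statistics used scipy 1.17.1, numpy 2.4.6 and pandas 2.3.3. Calls were also run on simulated reads with a set spread between cells. Such reads do not show how calls behave where a single cell holds most reads of a gene. Positions are from GENCODE 44. BEST2, HES5 and 14 further listed genes had no row under those names in the counts, so they could not be analysed. Some genes that the naming rule covers are not reported here.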

Additional observations from a re-analysis of the deposited data

Results flagged for a closer look

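Reads of the GFP-Spike row, which enters no comparison, were found at day 200, with 0 reads at day 60 and day 90; what the row stands for is not given in the sources used here. At day 200, 25% of the selected cells (5 of 20) and 35.3% of the other cells (253 cells) had at least 1 read. On chip a these were 1 of 6 and 162 of 350, and on chip b 4 of 14 and 91 of 367. The selected cells held 460 of these reads and the other cells 19031.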

How the results depend on the processing

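Shares moved beyond their interval with at least 2 genes (14.9%, 13.2% and 8.01% at day 60, 90 and 200), with at least 4 genes (0.692%, 4.08% and 1.63%) and, at day 60 and 90, after thinning to 50000 reads (1.56% and 4.58%). Without chip a or chip b the day 200 share was 3.67% or 1.69%. AOC3 left out, doublets left out, 3 or 10 reads and a stricter cell filter moved no share beyond its interval. The count of 15 higher genes became 54 against RPE list cells, 270 with members of at least 4 genes and 35 after thinning, and 35 to 48 on leaving out 1 chip. The 145 lower genes became 289 with a pseudocount of 1, 1 with cells weighted equally, 95 against Müller glia list cells, 1184 with at least 4 genes, 499 after thinning and 197 to 490 without 1 chip. Fewer chips make calls easier; otherwise the cause was not tested. Against RPE list cells, few of them outside day 90, HSD17B2 (-1.12), GJA1 (-0.65), GNG11 (-0.94) and DPYSL3 (0.68) changed sign. Day 200 against day 60 gave 421 higher genes with a pseudocount of 1, 15 higher and 104 lower with cells weighted equally, 1257 to 1297 higher and 1230 to 4056 lower without 1 chip. The neighbour share of chip a was 2.22% with 10 components and 2.78% with 30 neighbours. At least 1 list was met by 65 selected cells, and by 26 with 8 of 10 genes required. TMM library sizes moved the median of all genes from -0.42 to -0.38. Selected and other cells were compared within each chip, and no result comes from a test. Days could not be paired, because chips carry no shared replicate. Chip a, with 6 selected cells, limits every comparison on it.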
